A study of Homo sapiens and Mus musculus with 213 samples.

Results

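The genes described here lie on the long arm of chromosome 8, on both sides of MYC. They were chosen by position and by level: a start beyond 50 Mb of chromosome 8 in hg38 and a mean normalised read count of at least 10 over the 9 RNA-seq libraries. MYC itself, its neighbours PVT1 and CASC11, and symbols of several large families (KCN, COL, RPL, RPS, EIF, EEF, NDUF, UQCR, COX, ATP5, SNHG, FZD and GDF) were left out by the rule. Of 1385 listed genes in this segment, 923 were under the minimum and 27 were left out by symbol, so that 435 members remained of the 20884 genes tested and the 58336 listed in all. The level rule selected on a mean over all libraries, and the members at its edge were CYP7B1, just outside with a mean of 9.872, and ENSG00000249328, just inside with a mean of 10.13. Of the members, 276 are protein-coding, 84 are processed pseudogenes and 65 are lncRNA genes. The segment was picked out with its lower level in MUT already known, so that its values in MUT against WT are given as a description.

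HEK293T is an immortalised line derived from human embryonic kidney. WT cells keep the natural G-quadruplex (G4) motif of the MYC promoter, a G-rich stretch that can fold into a 4-stranded structure. MUT cells (HEK293T_MutMYCG4) carry point mutations that break its runs of G so that it cannot fold, and SWP cells carry in its place a G4 motif from another gene. Both edited lines were made with CRISPR-Cas9 and grown from sorted single cells, the study selected homozygous clones, and the clone or clones behind the RNA-seq libraries are not given in the sources used here. Each line had 3 libraries, numbered 1 to 3 as biological replicates. The question of the comparisons is whether the members shifted along the segment in MUT, in SWP, or in both.

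Long stretches of a chromosome can be gained or lost in cultured cells, and HEK293T is known for an abnormal chromosome number. The RNA level of most genes follows the number of copies of the gene, so neighbours on a gained or lost stretch tend to shift together, whatever their functions. MYC is a transcription factor that promotes growth, and its distal part of 8q is among the stretches most often gained in cancers. No DNA copy number was measured in the files used here. In a bulk RNA library, fewer copies per cell, less RNA per copy and fewer cells that express the gene cannot be told apart.

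The depth on genes ranged from 65024354 to 98497026 reads in a library. Libraries of one line differed by 9.1 to 60.2 in chi-square per degree of freedom, so none repeated another. The HEK293T markers VIM (51604 to 63784 normalised counts), KRT18 (2217 to 4112), NEFM (6552 to 13536), NEFL (4181 to 14992), KRT8 (172 to 804) and PAX2 (149 to 434) were detected in every library. Of the markers of other tissues, PTPRC, PECAM1 and ALB reached at most 5.94 normalised counts, and ACTA1 27.5 to 68.7. The headers of the WT libraries carry a tag, read here as the name of a sequencing pool, that those of MUT and SWP do not carry. A difference in pool and the difference of either edited line from WT therefore cannot be told apart. The comparison of SWP with MUT leaves out the tagged libraries, but whether MUT and SWP shared a pool is not given.

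Most members were lower in MUT than in WT. Their median log2 difference was -0.38, which is 76.7% of the WT level, with quartiles of -0.67 and -0.01, and 331 of 435 members lay below 0. Over all tested genes the median was -0.00338 and 10507 of 20884 lay below 0. A call needed a log2 difference beyond 0.5 and a limma p, adjusted by Benjamini-Hochberg across the 20884 genes, under 0.05. By this rule, 148 members were lower in MUT and 25 higher, where 10.1% of all tested genes were lower and 11.3% higher. Since 0.5 lies close to the median of the segment, the counts without a fold threshold are also given: 222 members lower and 36 higher, against 19.8% and 18.6% of all tested genes. Without any model, every MUT library lay below every WT library for 248 members and above for 51, against 26.4% and 25.9% of all tested genes.

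The protein-coding members had a median in MUT of -0.47 (72% of WT) and quartiles of -0.72 and -0.23, and 237 of 276 lay below 0. The largest share, 97 of 276 (35.1%), stood between 65% and 80% of WT in the fit. A further 56 stood between 50% and 65%, 40 between 80% and 95%, and 34 under 50%. Only 16 stood within 5% of the WT level, 20 above that and under 150%, and 13 at 150% or more. The median was similar at all levels of expression, at -0.51 in the 92 protein-coding members with the lowest mean count, -0.48 in the 92 in the middle and -0.45 in the 92 with the highest. The spread narrowed with the count, with quartiles of -0.98 and -0.04 in the first of these groups and -0.61 and -0.32 in the last.

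**Figure D1:**
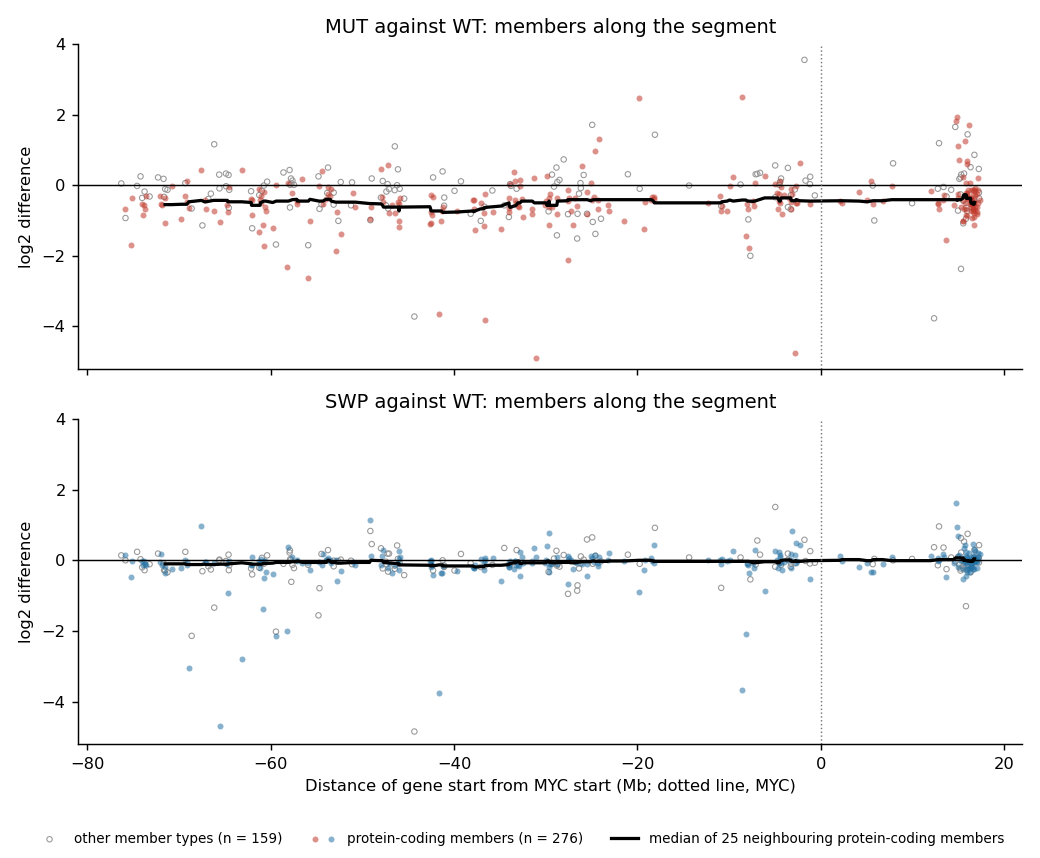
Fitted log2 differences (log2 of the normalised count plus 1) of the 435 members against the distance of their start from the MYC start in Mb, MUT against WT above and SWP against WT below; filled points are the 276 protein-coding members, open points the other types, and the line is the median of 25 neighbouring protein-coding members. The line stays between -0.77 and -0.27 in MUT and between -0.19 and 0.07 in SWP.

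The lower level in MUT ran along the whole segment. The median of 25 neighbouring protein-coding members was below 0 at all 252 positions where it could be taken, from -0.77 to -0.27. In windows of 10 Mb, the median of the protein-coding members ranged from -0.30 (81.1% of WT, 8 members from 130 to 140 Mb) to -0.70 (61.7%, 24 members from 80 to 90 Mb). The window that holds MYC, from 120 to 130 Mb, had a median of -0.40 over 26 protein-coding members. The last window, from 140 Mb to the end, had -0.43 over 74. Protein-coding members before the start of MYC had a median of -0.50 (n = 193) and those after it -0.43 (n = 83). In both parts most members lay below 0, 167 of 193 and 70 of 83.

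**Figure D2:**
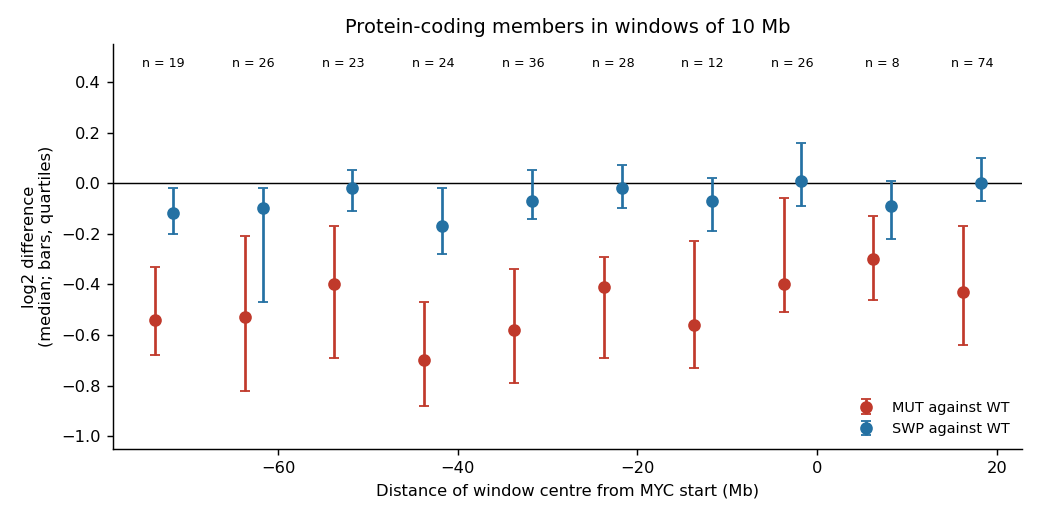
Median log2 difference of the protein-coding members in windows of 10 Mb, against the distance of the window centre from the MYC start in Mb, with bars from the lower to the upper quartile over members and the number of members above. All 10 MUT medians lie between -0.70 and -0.30, and the SWP medians between -0.17 and 0.01.

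The nearest genes on each side of 50 Mb, listed by position after their values were seen, were also compared. The first 5 protein-coding members after 50 Mb were all lower in MUT with an adjusted p under 0.05 (limma, Benjamini-Hochberg). They were PCMTD1 at -0.68, ALKAL1, which encodes a ligand of the ALK receptor, at -1.70, RB1CC1, which acts at the start of autophagy, at -0.37, ATP6V1H, a subunit of the proton pump of lysosomes, at -0.54, and RGS20, a regulator of G-protein signalling, at -0.83. Of the last 5 protein-coding genes before 50 Mb, SNAI2, a transcription factor of epithelial-mesenchymal transition and the nearest to the segment, fell by 1.77 in MUT (adjusted p = 4.07e-07 by limma) and by 4.07 in SWP (adjusted p = 2.11e-09 by limma), more than any of the 5 on the other side. The other 4 did not pass the test in MUT, with PRKDC at -0.22, UBE2V2 at 0.00, MCM4 at 0.10 and CEBPD at 0.16. The 9 protein-coding genes tested between 43 and 50 Mb had a median of 0.11. The single genes therefore do not place the edge of the shift more closely than this. On the first part of the chromosome, before 43 Mb, 167 protein-coding genes had a median of 0.26 (120% of WT), 40 of them higher and 9 lower in MUT by the rule. The first part of chromosome 8 and the segment beyond 50 Mb therefore had medians of opposite sign in MUT.

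In each library the members as a group stood at the same level as in the other libraries of its line. The median log2 difference of the protein-coding members from the WT mean of each gene was -0.459, -0.476 and -0.460 in the MUT libraries, -0.034, -0.047 and -0.058 in SWP and -0.003, 0.022 and -0.001 in WT. The MUT libraries lay below the other 6 and the lines did not overlap, while SWP and WT lay close together. Over all tested genes the medians were 0.003, -0.001 and 0.000 in MUT and -0.045, -0.053 and -0.053 in SWP. In WT they were -0.003, 0.010 and 0.002. The small distance of SWP from WT was therefore not particular to the members. Summed, the members took 1.24%, 1.25% and 1.24% of all normalised counts in MUT, 1.54%, 1.59% and 1.56% in SWP and 1.58%, 1.62% and 1.59% in WT.

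**Figure D3:**
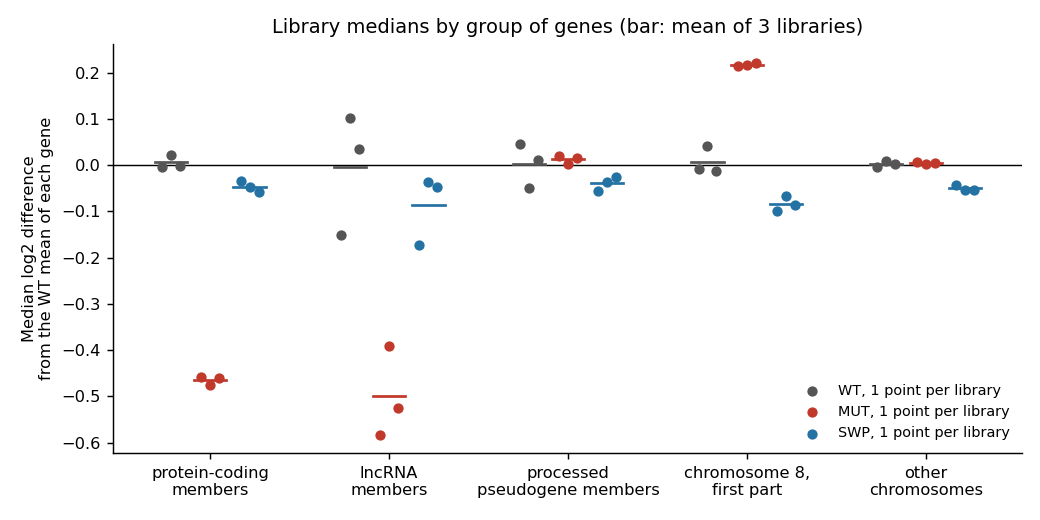
Median over genes of the log2 difference of a library from the WT mean of each gene, for 5 groups of genes; 1 point is 1 library, coloured by line, and the bar is the mean of the 3 libraries of a line. In MUT the protein-coding and lncRNA members lie low, the processed pseudogene members near 0 and the first part of chromosome 8, before 50 Mb, at 0.215 to 0.222.

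The types of gene differed. The 65 lncRNA members had a median of -0.59 in MUT (66.4% of WT), with 24 lower and 7 higher by the rule. Their library medians spread more than those of the protein-coding members, from -0.583 to -0.391 in MUT and from -0.150 to 0.102 in WT. The 84 processed pseudogene members had a median of 0.00792, with 4 lower and 5 higher, close to the median of -0.0276 over all 3410 processed pseudogenes tested. A processed pseudogene is a copy of a spliced transcript from a gene elsewhere, so a read counted on it can come from the parent gene, and its values are uncertain as values of 8q. PCBP2P2, with the most reads of this type, had 23356, 27461 and 24992 normalised counts in WT, 21972, 21053 and 22214 in MUT and 21801, 22358 and 23185 in SWP. Every library of both edited lines lay below every WT library. The log2 difference was -0.21 in MUT (SE 0.07, adjusted p = 0.0308 by limma) and -0.17 in SWP (adjusted p = 0.166 by limma), both within the fold threshold.

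Other stretches of the genome also shifted in MUT, some of them as far as the segment. Of 284 windows of 10 Mb elsewhere with at least 8 tested protein-coding genes, 35 (12.3%) had a median at or under -0.30, the highest median of the 10 windows of the segment. They lay on chromosomes 1 (9 windows), 6 (7), X (5), 10 (4), 13 (4), 3 (3) and 9 (3). The lowest medians were on chromosome 6, at -0.92, -0.84, -0.76 and -0.86 in the windows from 130, 140, 150 and 160 Mb. Each of these was lower than the lowest window of the segment (-0.70). On chromosome 13 the lowest was -0.62 (from 20 Mb). On chromosome 3 no window was lower than -0.38, and on X none was lower than -0.35. Protein-coding genes of chromosome 20 beyond 30 Mb had a median of 0.41 in MUT and -0.0506 in SWP. The members are therefore one of several long stretches with a common shift in the MUT libraries.

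The members take part in many processes, and 166 of them were assigned by name to 6 lists of genes with a known role, chosen with earlier results of these data known. In MUT the medians of all 6 lists lay below 0, between -0.62 and -0.43, and in SWP they lay between -0.0638 and -0.0164, beside -0.0554 over all tested genes. Beside the 3 members of each list with the highest mean, a few others are named that were chosen after their values were seen: E2F5, RECQL4, NBN, BOP1, MAFA, VPS28 and DEPTOR. The counts of each list follow, beside the 10.1% of all tested genes that were lower and the 11.3% that were higher in MUT. They are also to be read against the members, from which the lists were drawn. Of all members 34% were lower and 5.75% higher, and of the protein-coding members 43.1% and 4.71%. By adjusted p alone, 19.8% of all tested genes were lower and 18.6% higher. Of the 276 protein-coding members, 185 were lower and 17 higher by adjusted p alone.

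**Figure D4:**
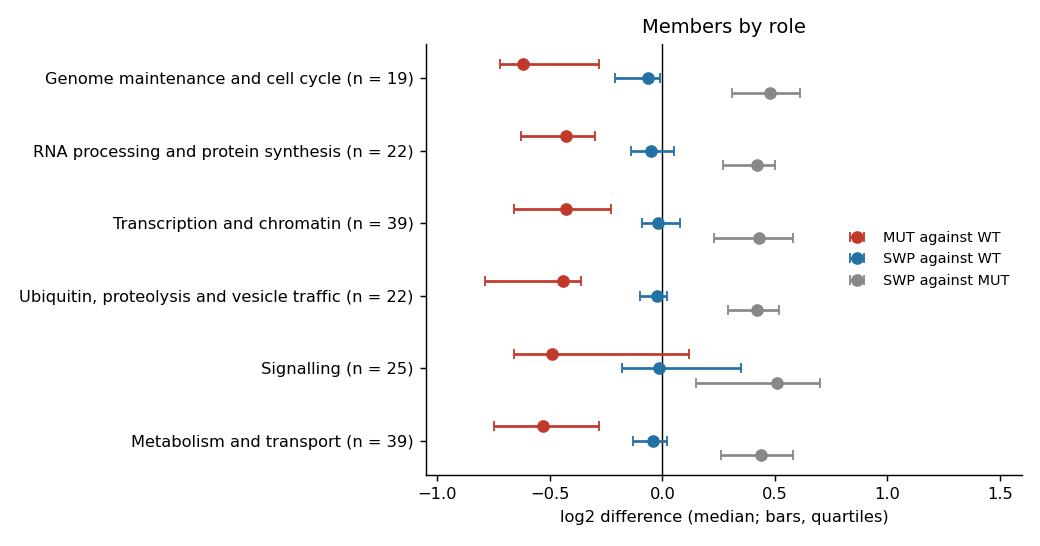
Median log2 difference of the members of each of 6 lists, with bars from the lower to the upper quartile over members, for MUT against WT, SWP against WT and SWP against MUT. In each list the MUT median lies between -0.62 and -0.43 and the SWP median between -0.0638 and -0.0164.

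Of the 19 members in genome maintenance and the cell cycle, the 12 called in MUT were all lower, and the median was -0.62. By adjusted p alone 14 were called, again all lower, beside 185 of the 276 protein-coding members lower by that measure. RAD21 (chr8:116845934-116874776) encodes a subunit of cohesin, the ring that holds sister chromatids together. It had 24003, 28915 and 26034 normalised counts in WT, 15736, 15858 and 15614 in MUT and 23513, 25270 and 24073 in SWP. All MUT libraries lay below all others, and SWP overlapped WT. The log2 difference was -0.74 in MUT (SE 0.07, adjusted p = 2.4e-05 by limma) and -0.11 in SWP (adjusted p = 0.393 by limma). RAD21 overlaps 2 other tested genes, UTP23 and RAD21-AS1, and shared reads cannot be assigned. RB1CC1 (chr8:52622458-52745843), described above by its part in autophagy, was also assigned to this list. RB1CC1 had 8905, 9955 and 8835 in WT, 7266, 7131 and 6956 in MUT and 8598, 9713 and 8982 in SWP. The order was the same as for RAD21, at a smaller size of -0.37 in MUT (SE 0.07, adjusted p = 0.00171 by limma). ATAD2 (chr8:123319850-123416350), a chromatin factor of dividing cells, did not share the lower level, with 9260, 9915 and 8725 in WT, 10385, 10108 and 10012 in MUT and 10078, 10401 and 10229 in SWP. All 6 edited libraries lay above WT, by 0.13 in MUT and 0.14 in SWP (SE 0.06), and neither passed the test (adjusted p = 0.121 and 0.199 by limma). Other members of the list that fell in MUT were E2F5, a transcription factor of the cell cycle, at 47.6% of WT, RECQL4, a DNA helicase, at 61.1%, and NBN, which senses DNA breaks, at 62.9%.

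Of the 22 members in RNA processing and protein synthesis, 8 were lower in MUT and all 22 lay below 0, with a median of -0.43. PABPC1 (chr8:100685816-100722809), which binds the poly(A) tail of mRNA, had the highest count of all members. It had 86241, 109420 and 92715 normalised counts in WT, 42935, 42899 and 46539 in MUT and 73729, 82826 and 85064 in SWP. MUT stood at 45.9% of WT, below every other library (log2 -1.12, SE 0.09, adjusted p = 8.1e-06 by limma), and SWP at 83.8%, also below every WT library but without passing the test (log2 -0.25, adjusted p = 0.125 by limma). PABPC1 has processed copies elsewhere that can share its reads. MTDH, a membrane protein of the endoplasmic reticulum, had 18433, 16930 and 15564 in WT, 11815, 11208 and 11175 in MUT and 17636, 15082 and 15006 in SWP. Its log2 difference in MUT was -0.57 (SE 0.08). PUF60, a splicing factor, had 16660, 12802 and 16542 in WT, 12056, 11144 and 12071 in MUT and 16747, 13918 and 14920 in SWP, with -0.37 in MUT (SE 0.10, adjusted p = 0.0159 by limma) and -0.01 in SWP. BOP1, a ribosome assembly factor, fell to 52.7% of WT in MUT.

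Of the 39 members in transcription and chromatin, 14 were lower and 2 were higher in MUT, with a median of -0.43. CHD7 (chr8:60678740-60868028), a chromatin remodeller, had 11223, 10997 and 9226 normalised counts in WT, 6344, 5884 and 7546 in MUT and 10009, 9367 and 11188 in SWP, a log2 difference of -0.67 in MUT (SE 0.11) and -0.04 in SWP. The other members of this list with high counts, HEY1 and ZBTB10, went the other way. HEY1, a repressor downstream of Notch, had 16043, 14869 and 15511 in WT, 22155, 20877 and 21003 in MUT and 15448, 13227 and 13648 in SWP. Its value of 0.46 in MUT (SE 0.07, adjusted p = 0.000447 by limma) stayed within the fold threshold, and passed it at 0.54 with equal totals per library and 0.50 with equal upper quartiles. ZBTB10, a zinc finger repressor, had 6454, 7370 and 6407 in WT, 9521, 9548 and 11227 in MUT and 5307, 5515 and 6453 in SWP, and rose by 0.58 in MUT (SE 0.10, adjusted p = 0.000753 by limma). The other riser was MAFA, a transcription factor of insulin-producing cells, at 239% of WT.

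Of the 22 members in ubiquitin, proteolysis and vesicle traffic, 9 were lower in MUT and all 22 lay below 0, with a median of -0.44. LAPTM4B, a lysosomal membrane protein, had 26922, 27177 and 26615 normalised counts in WT, 19603, 19756 and 19924 in MUT and 25388, 27599 and 27559 in SWP. It showed the shift with little spread, at -0.45 in MUT (SE 0.06, adjusted p = 0.000153 by limma) and -0.00 in SWP. RAB2A, a GTPase of early secretion, had 7257, 6596 and 6774 in WT, 5134, 5173 and 5003 in MUT and 6848, 6415 and 6483 in SWP, with -0.43 in MUT and -0.06 in SWP. VPS28, which sorts cargo into multivesicular bodies, fell to 45.7% of WT in MUT and stood at 97.8% in SWP.

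Of the 25 members in signalling, 11 were lower and 4 higher in MUT, with a median of -0.49 and an upper quartile above 0. YWHAZ, a 14-3-3 adaptor, had 44247, 36233 and 40177 normalised counts in WT, 32911, 30955 and 30768 in MUT and 42555, 37235 and 35746 in SWP, with -0.35 in MUT (SE 0.09, adjusted p = 0.00948 by limma). LY6E, a membrane-anchored surface protein, had 9014, 8155 and 9125 in WT, 5927, 5454 and 5878 in MUT and 8392, 8475 and 9115 in SWP, with -0.61 in MUT (SE 0.07) and -0.02 in SWP. GRINA had 8495, 8477 and 8439 in WT, 5703, 5807 and 6294 in MUT and 8407, 7937 and 9072 in SWP. Its value of -0.51 in MUT lay at the fold threshold and was -0.49 without MUT replicate 1 and -0.50 without MUT replicate 2. DEPTOR, an inhibitor of mTOR, fell to 28.2% of WT in MUT, with 679, 1300 and 1086 in WT and 252, 279 and 334 in MUT, while SWP had 524, 940 and 925.

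Of the 39 members in metabolism and transport, the 18 called in MUT were all lower, and the median was -0.53. By adjusted p alone 24 were lower and 1 higher, beside 185 lower and 17 higher of the 276 protein-coding members. CYC1 (chr8:144095039-144097525), cytochrome c1 of the respiratory chain, had 19866, 18717 and 22866 normalised counts in WT, 13258, 13225 and 13606 in MUT and 19528, 20124 and 20773 in SWP, with -0.61 in MUT (SE 0.08) and -0.02 in SWP. CA2, a carbonic anhydrase, had 49790, 57315 and 55518 in WT, 43301, 43329 and 42652 in MUT and 31446, 47363 and 45185 in SWP. Both edited lines lay below WT, at -0.33 in MUT (adjusted p = 0.0662 by limma) and -0.41 in SWP (adjusted p = 0.0708 by limma), and neither passed the test; without SWP replicate 2 the SWP value was -0.52 and passed it. SQLE, an enzyme of cholesterol synthesis, had 15059, 11441 and 13695 in WT, 11204, 14041 and 14178 in MUT and 18069, 18951 and 19495 in SWP. MUT overlapped WT (log2 -0.03), and SWP lay above every other library at 0.50 (SE 0.11, adjusted p = 0.0156 by limma). The SWP value no longer passed without WT replicate 2 (0.39), SWP replicate 2 (0.50) or SWP replicate 3 (0.48). It also did not pass with eBayes without trend (adjusted p = 0.0535 by limma) or with 10 added before the log (0.50).

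Single members moved much farther than the segment. Among members with a mean of at least 50 and lines that did not overlap, the largest falls in MUT were in ZNF572, LRRC69, LINC01419, LINC02904 and SULF1. ZNF572 (chr8:124973295-124979389), a zinc finger gene, had 84.1, 118 and 125 normalised counts in WT, 2.77, 4.86 and 1.95 in MUT and 105.4, 120.4 and 130.3 in SWP. MUT was close to 0 in all 3 libraries and SWP overlapped WT. The fitted value of -4.75 (SE 0.27, adjusted p = 6.7e-07 by limma) depends on the 1 added before the log, and was -5.13 with 0.1 added and -3.16 with 10. LRRC69 (chr8:91101832-91219257), a gene with leucine-rich repeats, had 170, 180 and 229 in WT, 16.6, 6.80 and 17.5 in MUT and 180, 202 and 225 in SWP, a value of -3.81 in MUT (SE 0.29) that was -3.12 with 10 added. LINC02904, a lncRNA gene that overlaps the pseudogene AK3P2, had 65.6, 53.9 and 65.5 in WT, 12.0, 11.7 and 9.74 in MUT and 96.2, 106 and 85.3 in SWP. It fell by 2.37 in MUT (SE 0.19). In SWP every library lay above WT at 0.63 (adjusted p = 0.0593 by limma). This passed the test with the replicate number as a block (adjusted p = 0.0383 by limma). With 10 added before the log it also passed (adjusted p = 0.032 by limma). By DESeq2 (0.69, adjusted p = 0.0319) and edgeR (0.69, adjusted p = 0.0207) it passed as well.

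Below the mean of 50, and named here after their values were seen, CPQ, a secreted carboxypeptidase gene, had 68.7, 68.5 and 50.1 normalised counts in WT, 0.924, 0 and 3.90 in MUT and 55.0, 75.0 and 69.2 in SWP. PEG13, an imprinted lncRNA gene inside TRAPPC9, had 22.6, 12.3 and 14.4 in WT, 0.924, 0 and 0 in MUT and 25.2, 18.6 and 19.6 in SWP. In both, the MUT libraries held few or no reads while SWP overlapped WT.

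The largest rises in MUT by the same rule were in SOD1P3, MAL2, ARC, ADGRB1 and GASAL1. MAL2 (chr8:119165034-119245673), a protein of transcytosis in epithelial cells, had 104.6, 128 and 113.6 normalised counts in WT, 630, 689 and 645 in MUT and 6.87, 6.69 and 11.5 in SWP. The 3 lines stood apart in both directions, with MUT above WT by 2.50 (SE 0.20, adjusted p = 5.8e-06 by limma) and SWP below WT (log2 -3.67, adjusted p = 9.3e-07 by limma). ARC (chr8:142611049-142614479), an immediate early gene of neurons, had 28.7, 38.2 and 29.8 in WT, 112, 144 and 122 in MUT and 50.4, 60.2 and 80.7 in SWP. ADGRB1, an adhesion receptor also known as BAI1, had 50.2, 47.1 and 47.2 in WT, 193, 171 and 157 in MUT and 104, 176 and 181 in SWP. ARC and ADGRB1 rose in both edited lines, ARC by 1.94 in MUT and 0.95 in SWP, and ADGRB1 by 1.82 in MUT and 1.61 in SWP. The SWP call of ARC was lost without SWP replicate 3 (0.77, adjusted p = 0.0595 by limma) and without WT replicate 3 (0.90, adjusted p = 0.0599 by limma). A fit of only the 2 groups compared also lost it (adjusted p = 0.0598 by limma). GASAL1, a lncRNA gene, had 44.1, 78.6 and 42.4 in WT, 192, 159 and 176 in MUT and 77.9, 85.4 and 87.6 in SWP, and rose by 1.71 in MUT (SE 0.22). In SWP its value of 0.65 (adjusted p = 0.0903 by limma) passed with the replicate number as a block (adjusted p = 0.0431) and without WT replicate 2 (0.94).

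Close to MYC the shift was mixed. MYC (chr8:127735434-127742951), not a member, had 20020, 28396 and 21580 normalised counts in WT, 10693, 11176 and 12400 in MUT and 14480, 24743 and 25245 in SWP, so that MUT lay below the other lines at 49% of WT and SWP overlapped WT at 92.1%. This compares with 72% for the median protein-coding member in MUT and 97.5% in SWP. Of the 6 members that start within 2 Mb of MYC, 4 are processed pseudogenes. That type had a median near 0 along the whole segment in MUT (0.00792). LRATD2 (chr8:126552443-126558478) is the protein-coding one, and it had 16047, 15475 and 13834 in WT, 10234, 10178 and 11228 in MUT and 9054, 10878 and 11607 in SWP. Both edited lines lay below every WT library, at 69.8% of WT in MUT and 69.5% in SWP (log2 -0.52 and -0.53, SE 0.10, adjusted p = 0.00148 and 0.00502 by limma). These values lie at the fold threshold, and without WT replicate 1 they were -0.47 and -0.48.

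PCAT1, a lncRNA gene that starts next to LRATD2 on the other strand and overlaps it, had 127, 111 and 136 normalised counts in WT, 122, 111 and 151 in MUT and 120, 114 and 114 in SWP, and all 3 lines overlapped (0.03 in MUT, -0.09 in SWP). The pseudogenes KNOP1P5 (0.13 in MUT), ENSG00000253543 (0.24) and ENSG00000224722 (-0.29) also overlapped between WT and MUT. SOD1P3, a pseudogene of a superoxide dismutase gene, varied between libraries more than any other member named here. It had 9.23, 6.73 and 10.6 in WT, 97.1, 127 and 117 in MUT and 1.15, 8.91 and 144 in SWP. The SWP libraries ran from below WT to above MUT, so that its SE was 1.09. Its rise of 3.55 in MUT (adjusted p = 0.0241 by limma) was lost when any 1 MUT library, WT replicate 2 or WT replicate 3 was left out (3.39 to 3.68, adjusted p from 0.0554 to 0.069 by limma). SWP against MUT was -2.97 (adjusted p = 0.0512 by limma), which passed with the replicate block (adjusted p = 0.0126) and without SWP replicate 3 (-4.63).

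In SWP the median of the segment lay close to that of all genes. The median log2 difference of the members from WT was -0.0512, beside -0.0554 over all tested genes, and that of the protein-coding members was -0.037, beside -0.0559 for protein-coding genes on other chromosomes. By the rule 20 members were lower in SWP and 11 higher, where 2.98% of all tested genes were lower and 2.15% higher. By adjusted p alone these were 32 and 17, against 5.48% and 4.49%. Every SWP library lay below every WT library for 68 members and above for 36, against 15.5% and 9.1% of all tested genes. The windows of 10 Mb ranged from a median of -0.17 (88.8% of WT, 80 to 90 Mb) to 0.01 over the protein-coding members. The members called lower in SWP were not spread evenly: 8 of the 50 members from 60 to 70 Mb were among them (16%), 6 of these protein-coding, against 1 of the 100 members beyond 140 Mb. This window was singled out after its values were seen. Of the 276 protein-coding members, 98 (35.5%) stood within 5% of the WT level and 81 between 80% and 95%.

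The largest falls in SWP by the rule were in LINC01419, MAL2, TOX, C8orf34 and ENPP2. TOX (chr8:58805412-59119147), a nuclear factor of T cell development, had 73.8, 136 and 100 normalised counts in WT, 62.9, 60.3 and 67.2 in MUT and 6.87, 17.8 and 11.5 in SWP. Its value was -3.04 in SWP (SE 0.31, adjusted p = 0.000118 by limma) and -0.65 in MUT (adjusted p = 0.122 by limma). C8orf34 (chr8:68330955-68819023) had 290, 418 and 351 in WT, 326, 345 and 376 in MUT and 58.4, 88.4 and 93.4 in SWP. Only SWP lay apart from the other lines, at -2.14 (SE 0.19, adjusted p = 3.9e-05 by limma), where MUT was at -0.00. ENPP2, the enzyme autotaxin, had 352, 437 and 395 in WT, 160, 123 and 151 in MUT and 81.3, 100 and 95.7 in SWP, and fell in both lines, to 36.7% of WT in MUT and 23.4% in SWP. TOX and C8orf34 each overlap a tested lncRNA gene, TOX-DT and C8orf34-AS1, and reads of shared parts cannot be assigned without knowing whether strand was used in counting.

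The largest rises in SWP were in ADGRB1, PKIA, CA8, ERICD and ARC. PKIA (chr8:78516340-78605267), an inhibitor of protein kinase A, had 1317, 1256 and 1346 normalised counts in WT, 607, 709 and 698 in MUT and 2745, 3101 and 2869 in SWP. The lines stood apart with WT in the middle, MUT at 51.4% (log2 -0.96) and SWP at 222% (log2 1.15, SE 0.08, adjusted p = 9.6e-06 by limma). CA8, a protein related to carbonic anhydrases, had 2350, 2069 and 2005 in WT, 2893, 3045 and 2751 in MUT and 3917, 4773 and 3944 in SWP. It rose by 0.97 in SWP (SE 0.09), and its 0.44 in MUT stayed within the fold threshold, but passed it without WT replicate 1 (0.51) and with equal totals per library (0.51). ERICD, a lncRNA gene, had 66.6, 57.2 and 55.8 in WT, 157, 127 and 130 in MUT and 151, 98.8 and 107 in SWP, and rose by 1.19 in MUT and 0.96 in SWP.

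For some members both edited lines were called in the same direction. By the rule 13 members were lower in both and 3 higher in both, while 134 were lower in MUT with no call in SWP and 5 lower in SWP with no call in MUT. Over all 20884 tested genes, 129 were lower in both, 237 higher in both, 1959 lower in MUT with no call in SWP and 272 lower in SWP with no call in MUT. Both comparisons use the same WT libraries, so a high or low WT value moves both. The 13 were NKAIN3, TTPA, TCF24, C8orf34-AS1, SULF1, CRISPLD1, LINC01419, PSKH2, TRIQK, ZNNT1, ENPP2, LRATD2 and TOP1MT, and several fell far more than the segment. The first 5 of them start between 60 and 70 Mb. SULF1 (chr8:69466624-69660915), which removes sulphate from heparan sulphate chains at the cell surface, had 1731, 2648 and 1970 normalised counts in WT, 386, 441 and 429 in MUT and 335, 666 and 631 in SWP. Both lines lay far below WT and overlapped each other, at 19.8% and 25.7% of WT (SE 0.23 on the log2 scale, adjusted p = 2.9e-05 and 0.000301 by limma). LINC01419 (chr8:83403758-83408900) had 148, 303 and 232 in WT, 8.32, 23.3 and 19.5 in MUT and 9.17, 6.69 and 4.61 in SWP, or 7.49% and 3% of WT. Also chosen after their values were seen, TCF24 and TOP1MT fell in both lines. TCF24, a basic helix-loop-helix gene, had 857, 942 and 898 in WT, 386, 398 and 444 in MUT and 257, 393 and 398 in SWP. TOP1MT, the mitochondrial topoisomerase I, stood at 4513, 4512 and 4889 in WT, 2297, 2241 and 2304 in MUT and 3050, 3218 and 3335 in SWP, in 3 separate levels.

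**Figure D5:**
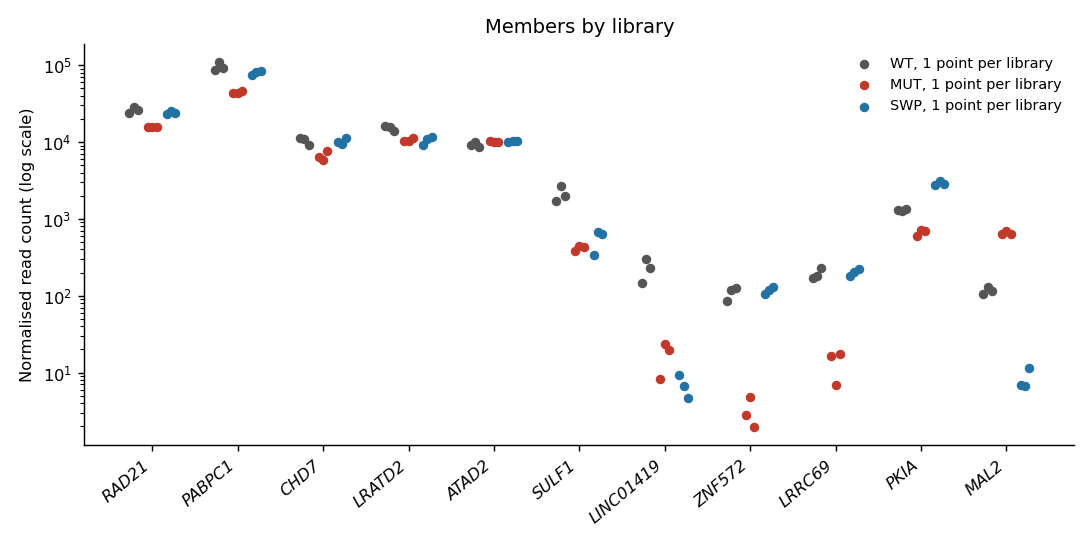
Normalised read count on a log scale of 11 members in each library, coloured by line. RAD21, PABPC1 and CHD7 lie low in MUT, LRATD2, SULF1 and LINC01419 lie below WT in both edited lines, ATAD2 is slightly above WT in both, ZNF572 and LRRC69 nearly vanish in MUT alone, and PKIA and MAL2 move in opposite directions.

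The edited lines were also compared with each other, which leaves out the WT libraries. Whether MUT and SWP shared a sequencing pool is not given. The members had a median of 0.31 in SWP against MUT (124% of the MUT level), beside -0.0462 for genes on other chromosomes, and the protein-coding members 0.44 (136%). By the rule 130 members were higher in SWP than in MUT and 33 lower, where 8.31% of all tested genes were higher and 12.3% lower. By adjusted p alone these were 214 and 40, against 17.2% and 20.9%. Every SWP library lay above every MUT library for 241 members and below for 55, against 23% and 29.2%. The median was between 0.25 and 0.48 in each window of 10 Mb over the protein-coding members. This comparison uses the MUT libraries that the segment was chosen on, so that the values are a description.

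Among single members, the largest rises in SWP against MUT were in ZNF572 (4.89), LRRC69 (3.89), LINC02904 (3.00), PKIA (2.11) and PI15 (1.86). PI15, a secreted protease inhibitor gene, had 118, 153 and 119 normalised counts in WT, 29.6, 38.9 and 36.0 in MUT and 119, 158 and 113 in SWP, so that it was low in MUT alone, at 26.8% of WT. The largest falls were in MAL2 (-6.17), TOX (-2.39), C8orf34 (-2.14), EPPK1 (-1.49) and RIMS2 (-1.23). EPPK1, a plakin of the cytoskeleton, had 55.4, 49.4 and 35.6 in WT, 197, 119 and 152 in MUT and 50.4, 43.1 and 70.3 in SWP. RIMS2, which acts in neurotransmitter release, had 39.0, 58.4 and 45.2 in WT, 120, 108 and 126 in MUT and 39.0, 64.6 and 48.4 in SWP. Both were high in MUT alone, while SWP overlapped WT.

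By these counts a common lower level along the segment was present in the MUT libraries and was not seen in the SWP libraries. Whether MUT cells carry fewer copies of the segment was not tested.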

How the data were processed

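RNA-seq libraries of HEK293T WT, MUT and SWP cells were used (9 of 213 samples listed); the other assays were not analysed here. The labels gave the line and the replicate number. Libraries were made by the authors from poly(A) RNA with a kit that keeps strand. The authors mapped them to hg38 (bwa mem), took out duplicates (Picard) and assigned reads to GENCODE genes; the counting tool and its use of strand are not given in the sources used here. The aligner does not split a read at introns, and copies of a gene can share reads. What the authors deposited is a signal per gene, the read count over the DESeq2 size factor of its library. Multiplied back, 100% of values gave whole reads (tolerance 0.1), which were used for alternatives only. Positions come from GENCODE release 44 on hg38, which matched 57754 of 58336 identifiers.

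Differences were tested with limma 3.58.1 (R 4.3.3, eBayes with trend) on log2(normalised count + 1), which understates changes of low genes, in a single fit of all 9 libraries, with p-values adjusted by Benjamini-Hochberg over 20884 genes. For 3 libraries against 3, an exact permutation test of 1 gene cannot go below p = 0.1. The labels number biological replicates but do not say that they are separate cultures, so that p-values measure the spread between these libraries. Same-numbered libraries deviated together between WT and SWP (r = 0.555, 0.403 and 0.102) and between MUT and SWP (0.333, 0.241 and 0.232). WT replicate 3, however, went more with SWP replicate 2 (0.166) than with SWP replicate 3. The main fit left such pairing out, and the replicate number was a block in an alternative only. The alternatives were the recovered reads in DESeq2 1.42.0 and in edgeR 4.0.16, other scalings, minima, pseudocounts and thresholds and leaving out each library. On simulated data with 200 of 20884 genes changed between MUT and WT by 1 or 2 on the log2 scale, limma recovered 76 genes at 1 and 97 at 2 and called 6 others; changes as small as the median of the segment were not simulated. Depth limits low genes: a mean of 10 is about 10 reads per library, and counting error is only part of the spread.

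The members, the 6 lists and the tests were chosen with earlier results of these data known. Named genes are, in each comparison, the 5 called members with the largest fall and the 5 with the largest rise among those with a mean of at least 50 and lines that do not overlap, the 5 members with the highest mean, members within 2 Mb of MYC, and 3 members with the highest mean of each list; others are said to be named after their values were seen. One member that the rule names is not reported here.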

Additional observations from a re-analysis of the deposited data

Results flagged for a closer look

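The 2 edited lines differed from each other at 163 members by the test of SWP against MUT (limma, Benjamini-Hochberg, and a log2 difference beyond 0.5). Of these, 130 were higher in SWP and 33 lower. Over all 20884 tested genes, 4309 were called, 8.31% higher and 12.3% lower, so differences between the lines were not particular to the members. Among the members named by the rule, the difference between the lines was -6.17 for MAL2, -2.39 for TOX, -2.14 for C8orf34, -1.49 for EPPK1 and -1.23 for RIMS2, lower in SWP, and 4.89 for ZNF572, 3.89 for LRRC69, 3.00 for LINC02904, 2.11 for PKIA and 1.86 for PI15, higher in SWP. The rule named only members whose libraries do not overlap between the lines compared. MAL2 and PKIA differed from WT in opposite directions in the 2 lines.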

How the results depend on the processing

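The direction of each median and of each called value of the 43 named members and MYC held under every alternative run. The median of the members was -0.382 in MUT against WT, and was -0.395 with the genes left out by symbol put back, -0.394 at a minimum mean of 50, -0.367 with a pseudocount of 10, -0.308 with equal totals, -0.344 with equal upper quartiles, -0.37 beyond 100 Mb and -0.474 over protein-coding members only, an alternative chosen after seeing the data. In SWP against MUT it was 0.314, and was 0.361 by DESeq2, 0.357 by edgeR, 0.324 with those genes put back, 0.355 at a minimum mean of 50, 0.288 with equal totals, 0.367 beyond 100 Mb and 0.442 over protein-coding members. In SWP against WT it was -0.0512, and was -0.00806 by DESeq2, -0.00739 by edgeR, -0.0641 with those genes put back, -0.0366 at a minimum mean of 50, -0.00195 with equal totals, -0.0183 with equal upper quartiles, -0.0117 beyond 100 Mb and -0.037 over protein-coding members. Leaving out each library in turn gave -0.413 to -0.379 in MUT, 0.313 to 0.336 in SWP against MUT and -0.0564 to -0.0433 in SWP against WT. The counts of members called (173 in MUT against WT, 163 in SWP against MUT, 31 in SWP against WT) were 64, 49 and 17 with a log2 threshold of 1 and 87, 85 and 13 of the 216 members beyond 100 Mb. Without a fold threshold they were 254 in SWP against MUT (214 higher and 40 lower, against 17.2% and 20.9% of all tested genes). In SWP against WT they were 49 (17 higher and 32 lower, against 4.49% and 5.48%). Leaving out each library gave 162 to 181, 146 to 166 and 24 to 31. The shares of all tested genes are not given for a log2 threshold of 1 or with a library left out. These counts therefore show how the calls depend on the setting, not how the members compare with all genes.

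With the replicate number as a block the counts were 187, 169 and 37 and the medians did not move. The shares of all tested genes with the block are not given either. WT and MUT shared only a number (r = 0.328, 0.146 and 0.049 between same-numbered libraries), and there the block also called TOX (adjusted p = 0.0389 by limma). TOX in MUT was also called by DESeq2 (adjusted p = 0.0472) and by edgeR (adjusted p = 0.0495). Beside the calls given with the results for GASAL1, LINC02904 and SOD1P3, the block changed no other call of a named member. DESeq2 gave no adjusted p for SOD1P3 in MUT against WT. Of 65 called values of the named members and MYC, 54 held under every alternative and 11 were lost under at least 1, most of them close to the fold threshold, and 9 uncalled values passed under at least 1. LINC01419 in SWP against MUT (-1.13) was lost without MUT replicate 2 (-0.86), MUT replicate 3 (-0.99), SWP replicate 2 (-1.14), SWP replicate 3 (-0.92) or WT replicate 3 (-1.13). It was also lost by edgeR (-1.27, adjusted p = 0.0784) and by limma with a pseudocount of 10 (-0.65, adjusted p = 0.0843). By limma without trend, with only the 2 groups compared or with all genes with any count it was lost too (adjusted p = 0.0635, 0.0576 and 0.062).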
